A study of Mus musculus with 30 samples.

Results

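The microRNAs miR-143 (mmu-miR-143) and miR-145 (mmu-miR-145) of smooth muscle were followed in mouse hearts after carbon black had been placed in the lungs. They were found by matching these names to the miRNA names of the array, and they are 2 of its 1079 mouse miRNAs. Female C57BL/6 mice, acquired at 5 to 6 weeks of age, received 1 intratracheal instillation and were killed 1, 3 or 28 days later. The exposed mice got 162 µg of Printex 90, a commercial carbon black of nanosized particles, dispersed by sonication in saline that held 10% acellular lavage fluid from lungs of the same strain. The vehicle mice are labelled as controls at a dose of 0 µg. RNA of single mice, enriched for small RNA, came from a random heart section that held both ventricles, and each array carried the RNA of 1 mouse labelled in 1 colour. The exposed groups held 6 hearts on day 1, 4 on day 3 and 5 on day 28 with a signal, and the vehicle groups held 4, 6 and 4.

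The miR-143 and miR-145 hairpins are neighbours and are made from 1 primary transcript. In the RefSeq annotation (GRCm38.p6) the genes Mir143 and Mir145a lie inside the long noncoding RNA gene Carmn on chromosome 18. Transcription of the pair is driven by serum response factor with its cofactor myocardin, and in adult tissue both are enriched in vascular and visceral smooth muscle. miR-145 represses Klf4 and Klf5, transcription factors that oppose the contractile state, and the pair is known for keeping smooth muscle cells contractile. In a piece of ventricle these cells lie in the walls of coronary vessels. A whole section was measured, so fewer smooth muscle cells and less of a miRNA per cell cannot be told apart.

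Signals are given as scaled log2 signals, that is, background-subtracted intensities brought to 1 common 75th percentile, so that 1 unit is a doubling. Between 231 and 339 mouse miRNAs were detected per array, 306 were tested, and 0 spots were saturated. Each member had 2 probes of 20 spots each, and all of these probes were detected on 29 of 29 arrays. The median coefficient of variation over the repeat spots of a probe was 2.75% for miR-143 and 6.54% for miR-145. The 2 probes of miR-143 followed each other across the arrays (r = 0.990), and so did those of miR-145 (r = 0.963). The passenger arms miR-143* (2 probes) and miR-145* (4 probes) were detected on 0 of 29 arrays and have no level here. The levels of different miRNAs are not set against each other, since probes differ in brightness. All 5 cardiomyocyte markers listed for this tissue (miR-1a, miR-133a, miR-133b, miR-208a-3p and miR-499) were among the tested miRNAs, as were both arms of endothelial miR-126.

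Before the comparisons, 2 hearts have to be set apart: the heart of Printex 90 replicate 5 on day 1 and that of vehicle replicate 5 on day 3. They had the highest and the next highest signal of both members among the 29 hearts. The other 27 hearts spanned 0.34 in miR-143 (from 9.81 to 10.15) and 0.43 in miR-145 (from 6.30 to 6.73) under this scaling. In the authors' log2 value table the same 27 hearts spanned 0.79 and 0.36, and without scaling 1.29 and 1.24. The exposure differences below are given with and without the high heart or hearts that enter them, a choice made after their values were seen. Since these hearts were picked on the members' own values, the members' intervals and p-values without them cannot be taken at face value.

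On day 1, miR-143 stood at 9.99, 9.91, 9.99, 9.81, 11.65 and 9.87 in Printex 90 hearts, against 10.13, 10.03, 10.09 and 9.99 in vehicle hearts. The exposed heart at 11.65 was above all vehicle hearts, the other 5 exposed hearts were all below the vehicle mean of 10.06, and the groups overlapped. The difference, Printex 90 minus vehicle, was 0.14 ± 0.23 (SE) with an adjusted p of 0.898 in limma over 306 miRNAs, of which 0.00% passed in this comparison. In folds this is 1.10, with a 95% interval from 0.799 to 1.53. Without the 2 high hearts the difference was -0.15, a fold interval from 0.818 to 0.997 with an adjusted p of 0.862, so the direction on day 1 rests on Printex 90 replicate 5. That narrower interval follows from leaving out hearts for their values in the members.

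The same heart set the picture for miR-145 on day 1. The signals were 6.50, 6.40, 6.70, 6.39, 7.83 and 6.50 in Printex 90 hearts, against 6.61, 6.64, 6.71 and 6.59 in vehicle hearts. Of the exposed hearts, 2 lay above the vehicle mean, and the groups overlapped. The difference was 0.079 ± 0.19 (limma, adjusted p = 0.918), or 1.06-fold with an interval from 0.805 to 1.39. Without the 2 high hearts it was -0.14 (adjusted p = 0.862).

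On day 3, miR-143 stood at 10.12, 9.91, 9.89 and 9.92 in Printex 90 hearts, against 10.05, 9.96, 10.08, 9.90, 10.56 and 9.85 in vehicle hearts. The highest value was that of a vehicle heart, and the ranges overlapped. The difference was -0.10 ± 0.23 (limma, adjusted p = 0.999), and 0.00% of all tested miRNAs passed on this day. Without vehicle replicate 5 it was -0.0051.

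miR-145 on day 3 read 6.66, 6.48, 6.59 and 6.65 in Printex 90 hearts, against 6.66, 6.48, 6.62, 6.56, 7.19 and 6.45 in vehicle hearts. Apart from the vehicle heart at 7.19, both groups filled nearly the same range. The difference was -0.066 ± 0.19 (limma, adjusted p = 0.999), and without that heart it turned to 0.041. A further Printex 90 heart of day 3, replicate 3, is given only in the authors' log2 value table, at 9.78 for miR-143 and 7.39 for miR-145, and entered only the alternatives that read that table.

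On day 28, miR-143 stood at 10.15, 9.83, 9.91, 9.87 and 9.95 in Printex 90 hearts, against 9.98, 10.02, 10.09 and 9.92 in vehicle hearts. The exposed hearts held both the highest and the lowest value, and 1 of them exceeded the vehicle mean. The difference was -0.061 ± 0.24 (limma, adjusted p = 0.980), and again 0.00% of all tested miRNAs passed. miR-145 read 6.73, 6.30, 6.51, 6.59 and 6.56 in Printex 90 hearts, against 6.37, 6.63, 6.60 and 6.62 in vehicle hearts. Here too the vehicle values lay inside the exposed range, and the difference was -0.018 ± 0.20 (limma, adjusted p = 0.994). Leaving out Printex 90 replicate 2 turned it to 0.041, vehicle replicate 2 to 0.0079 and vehicle replicate 4 to 0.0048.

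**Figure D1:**
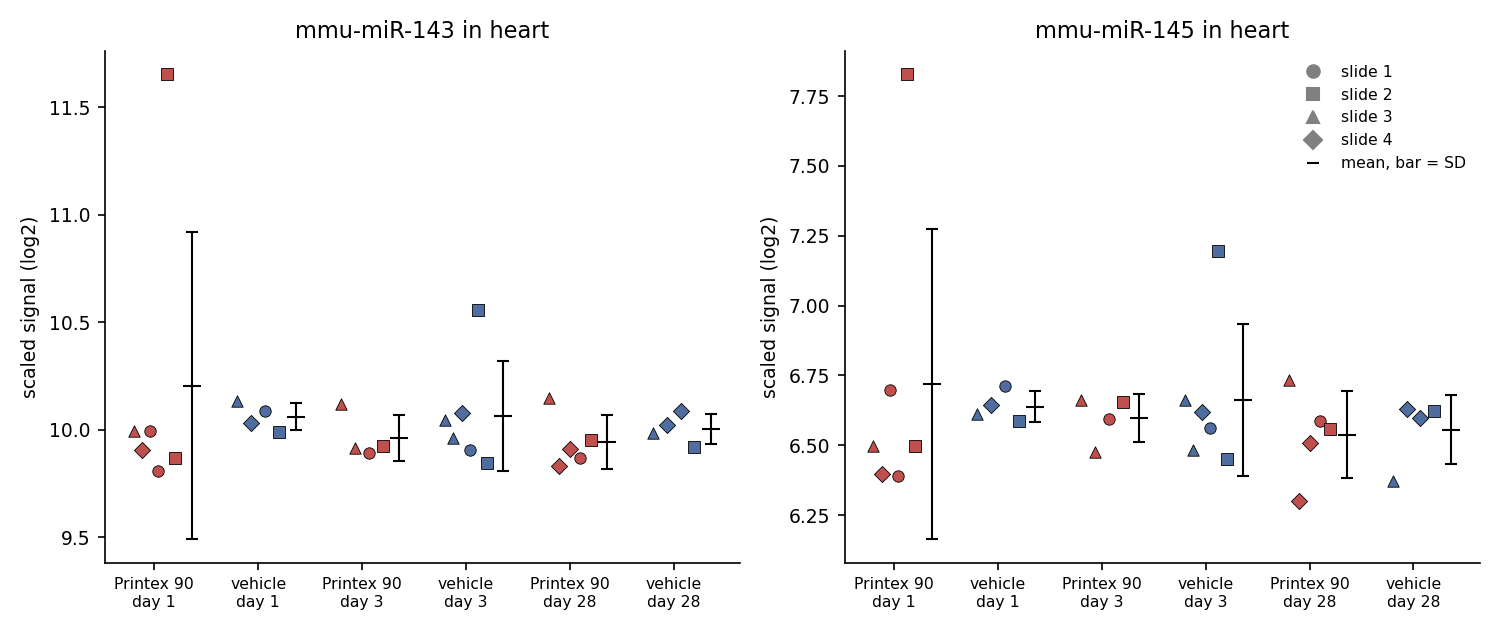
Scaled log2 signal of miR-143 (left) and miR-145 (right) in each heart, by treatment and day, with marker shape for the slide and, beside each group, its mean with the SD as a bar. Printex 90 replicate 5 on day 1 (11.65 and 7.83) and vehicle replicate 5 on day 3 (10.56 and 7.19) stand above the other 27 hearts, and the groups overlap on every day.

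With the 3 days given equal weight, the exposure difference was -0.0072 ± 0.13 for miR-143, a fold of 0.995 with a 95% interval from 0.824 to 1.20. For miR-145 it was -0.0013 ± 0.11, a fold of 0.999 with an interval from 0.852 to 1.17. Neither passed (limma, adjusted p = 0.994 for both), and 0.00% of all tested miRNAs did. Leaving out 1 heart at a time, the sign turned for 10 of 29 hearts in miR-143 and for 13 of 29 in miR-145. Without vehicle replicate 5 of day 3 the values were 0.026 for miR-143 and 0.034 for miR-145, and without Printex 90 replicate 5 of day 1 they were -0.10 and -0.075. Without both hearts the differences were -0.071 and -0.040, and the fold intervals narrowed to between 0.899 and 1.01 for miR-143 and between 0.910 and 1.04 for miR-145. Both hearts were left out for their values in the members, so this narrowing follows from the choice and is no gain in precision.

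**Figure D2:**
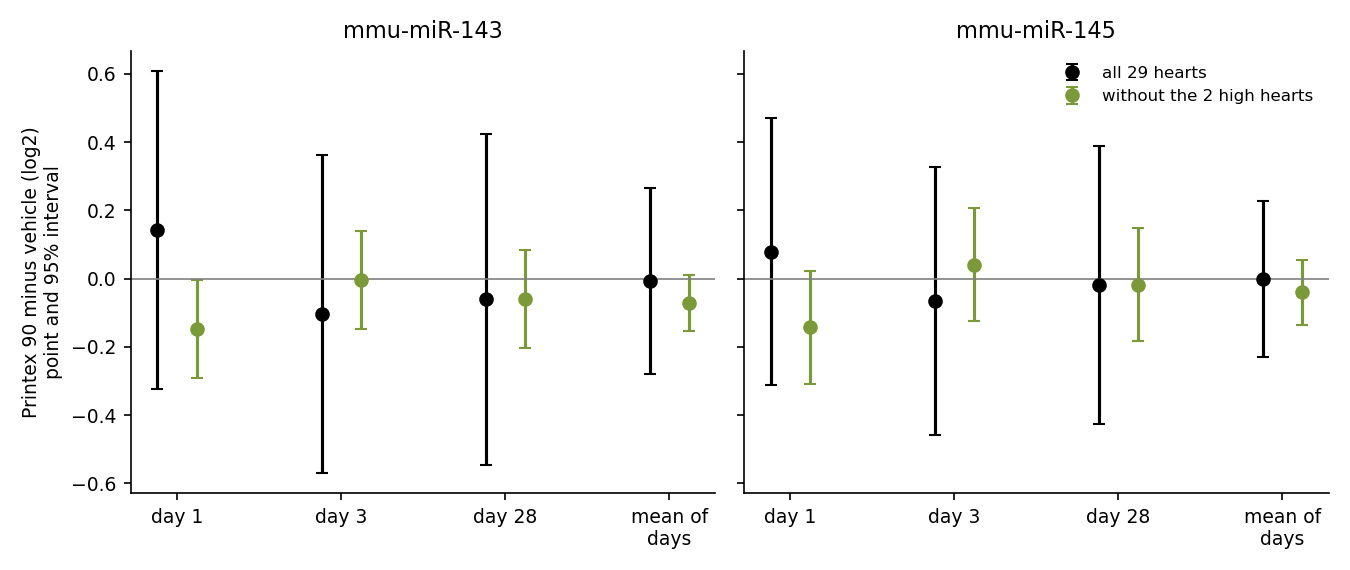
Difference Printex 90 minus vehicle (log2) with its 95% interval for each day and for the mean of the days, with all 29 hearts (black) and without the 2 high hearts (green). With all hearts every interval includes 0, and on day 1 the point for miR-143 is 0.14 with all hearts and -0.15 without the 2. The green fit leaves out hearts picked on the members' own values, so its narrower intervals follow from that choice.

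Neither the change of the exposure difference between days nor the course over days within a treatment passed for either member. The exposure difference on day 3 minus that on day 1 was -0.25 ± 0.32 for miR-143 and -0.15 ± 0.27 for miR-145, where 0.00% of all tested miRNAs passed. On day 28 minus day 1 it was -0.20 ± 0.33 and -0.097 ± 0.27, and on day 28 minus day 3 it was 0.043 ± 0.33 and 0.048 ± 0.27, with 0.00% passing in each. Adjusted p-values of these 6 tests ran from 0.824 to 0.988 (limma). Without the 2 high hearts all 6 differences changed sign, the first to 0.14 for miR-143 and 0.18 for miR-145. Leaving out Printex 90 replicate 5 of day 1 alone did so for the 4 differences against day 1, and vehicle replicate 5 of day 3 alone for the last pair. The last pair also turned without Printex 90 replicate 1 of day 28 (-0.0088 for miR-143 and -0.00070 for miR-145), and miR-145 did so without vehicle replicate 1 of day 28 (-0.013).

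Within Printex 90 hearts, miR-143 was -0.24 ± 0.23 on day 3 relative to day 1 and -0.26 ± 0.21 on day 28 relative to day 1, and miR-145 was -0.12 ± 0.19 and -0.18 ± 0.18. Of all miRNAs, 0.00% passed in the first of these comparisons and 1.31% in the second. Without Printex 90 replicate 5 of day 1 the values were 0.048 and 0.029 for miR-143 and 0.10 and 0.042 for miR-145. On day 28 relative to day 3, where 0.327% of all miRNAs passed, miR-143 was -0.020 ± 0.24 and miR-145 was -0.058 ± 0.20. These small values also turned, to 0.033 for miR-143 without Printex 90 replicate 1 of day 3, and to 0.0082 for miR-143 and 0.00068 for miR-145 without replicate 2 of day 28.

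Vehicle hearts gave the same picture. On day 3 relative to day 1 miR-143 was 0.0044 ± 0.23 and miR-145 0.023 ± 0.19, with 0.00% of all miRNAs passing, and the values were -0.094 and -0.084 without vehicle replicate 5 of day 3. For miR-143 this difference was also below 0 without vehicle replicate 2 (-0.0054) or 4 (-0.019) of day 1. On day 28 relative to day 1 miR-143 was -0.058 ± 0.25 and miR-145 -0.084 ± 0.21, where 1.96% of all miRNAs passed. On day 28 relative to day 3, where 0.654% passed, they were -0.062 ± 0.23 and -0.11 ± 0.19, and 0.036 and 6.4e-05 without vehicle replicate 5 of day 3. Over the 13 comparisons, 0 of 26 tests of the members passed, and their lowest adjusted p in limma was 0.647 (lowest unadjusted p 0.230).

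The order of the 6 group means says little more. For miR-143 it ran from Printex 90 on day 1 (10.20 ± 0.71, SD, n = 6) through vehicle on day 3 (10.07 ± 0.26, n = 6), vehicle on day 1 (10.06 ± 0.06, n = 4), vehicle on day 28 (10.00 ± 0.07, n = 4) and Printex 90 on day 3 (9.96 ± 0.11, n = 4) to Printex 90 on day 28 (9.94 ± 0.12, n = 5). For miR-145 it ran from Printex 90 on day 1 (6.72 ± 0.56) through vehicle on day 3 (6.66 ± 0.27), vehicle on day 1 (6.64 ± 0.05), Printex 90 on day 3 (6.60 ± 0.09) and vehicle on day 28 (6.55 ± 0.12) to Printex 90 on day 28 (6.54 ± 0.16). No neighbours in either order were separated: the ranges of each pair of neighbouring groups overlapped. The 2 groups at the top are those that hold the 2 high hearts. Without these, their means were 9.91 ± 0.08 in Printex 90 hearts on day 1 and 9.97 ± 0.10 in vehicle hearts on day 3 for miR-143 (SD, n = 5 each), and 6.50 ± 0.12 and 6.55 ± 0.09 for miR-145.

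The members moved together from heart to heart under this scaling. Across 29 hearts their signals correlated with r = 0.952 and rho = 0.771, both with a permutation p of 1e-05, the smallest that 100000 resamples give, and an adjusted p of 3.5e-05 over the 14 tests of this relation. With the 2 high hearts left out, which are also the hearts farthest from the median of miR-143, r was 0.677 and rho 0.716 (n = 27, adjusted permutation p = 0.000187 and 0.000168). Deviations from the group means gave r = 0.954. The relation depended on the processing: over 29 hearts quantile normalization gave r = 0.691 and rho = 0.067 (permutation p = 0.0131 and 0.731), and normexp background correction gave r = 0.820 and rho = 0.22 (permutation p = 0.000780 and 0.252). Over the other 27 hearts r was -0.20 with quantile normalization and -0.0071 with normexp, so under these settings it rests on the 2 high hearts. It was 0.42 with the first probe of each member alone, 0.72 in the authors' log2 value table and 0.97 without scaling. Within the 4 slides r was 0.885, 0.987, 0.826 and 0.909, with adjusted exact permutation p-values of 0.0292, 0.00268, 0.0254 and 0.0146. On slide 2 without the 2 high hearts r was 0.66 and rho 0.54 (n = 6). Within slides rho lay between 0.679 and 0.857, and its adjusted exact permutation p was 0.0628, 0.0277, 0.0167 and 0.110, past the threshold on slides 2 and 3. The 2 values of a heart share its array, its RNA and its scaling.

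**Figure D3:**
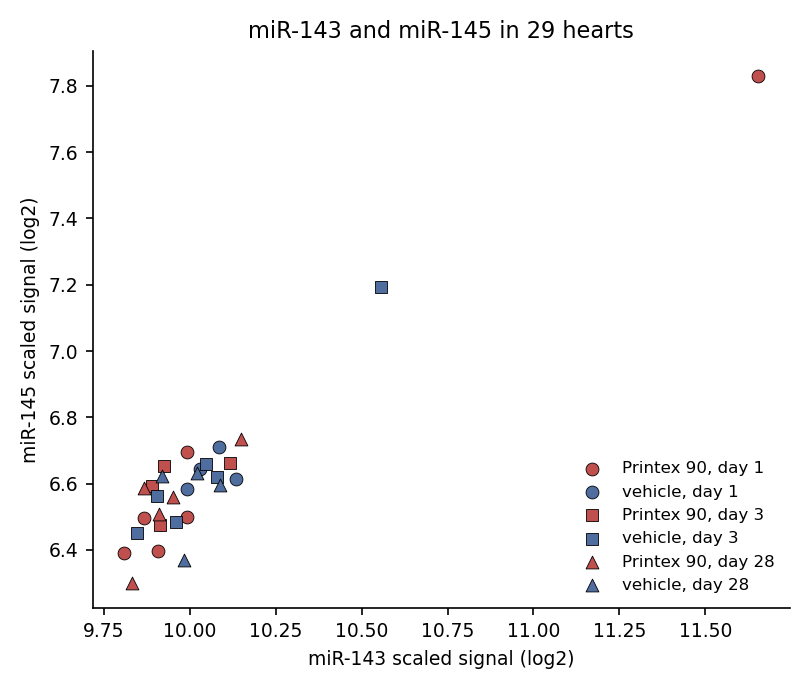
Scaled log2 signal of miR-145 against that of miR-143, 1 point per heart, in colours for treatment and shapes for day. The 2 high hearts lie far out along the same direction as the other 27 hearts, whose own correlation is 0.677 under this scaling.

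The signal of miR-143 relative to that of miR-145 was also compared, and only its difference between groups can be read. The log2 ratio was 3.49 ± 0.18 in Printex 90 hearts and 3.42 ± 0.07 in vehicle hearts on day 1 (SD, n = 6 and 4), a difference of 0.063. On day 3 it was 3.37 ± 0.10 in Printex 90 hearts and 3.40 ± 0.05 in vehicle hearts (n = 4 and 6), a difference of -0.038. On day 28 it was 3.40 ± 0.09 in Printex 90 hearts and 3.45 ± 0.14 in vehicle hearts (n = 5 and 4), a difference of -0.043. The exact two-sided permutation p was 0.643, 0.424 and 0.619 (adjusted over the 3 days 0.643 each), where the smallest p possible is 0.00476 on days 1 and 3 and 0.00794 on day 28. Without Printex 90 replicate 5 the day 1 difference was -0.0045, and without vehicle replicate 1 the day 28 difference was 0.012.

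Other miRNAs were ranked by how closely they followed the members across the 29 hearts, by Pearson's r and without a test. Of the 305 others, miR-145 came first for miR-143 and miR-143 first for miR-145. Then came miR-140, miR-140*, miR-365 and miR-21 for miR-143 (r = 0.906, 0.895, 0.861 and 0.818). For miR-145 they were miR-140, miR-365, miR-140* and miR-23b (r = 0.908, 0.907, 0.877 and 0.813). The median r of all others was 0.013 for miR-143 and 0.062 for miR-145. miR-140 is known from cartilage, miR-21 is induced in cardiac fibroblasts under stress, and miR-23b is made from a cluster with miR-27b and miR-24.

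Most of these likenesses came from the 2 high hearts. Over the other 27, r with miR-143 was -0.13 for miR-140, -0.091 for miR-140*, 0.40 for miR-365 and 0.011 for miR-21. Among those 27 hearts miR-145 still came first for miR-143, followed by miR-27b (r = 0.640). For miR-145, miR-365 came first (r = 0.723), miR-143 next (r = 0.677) and miR-23b at place 8 (r = 0.515). The medians of all others were then 0.18 and 0.23.

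The mature sequences of miRNAs ranked close to the pair over 29 or 27 hearts are shown to compare their seeds. They are from RefSeq (GRCm38.p6), 5′ to 3′, with the seed, bases 2 to 8, in capitals, and 4 of 8 arms looked up were matched. The array's miR-140* is miR-140-3p, whose hairpin lies in Wwp2, and miR-21 is miR-21a-5p, in Vmp1. miR-27b-3p lies in Aopep, and miR-365-3p is made from 2 hairpins.
mmu-miR-140-3p: uACCACAGgguagaaccacgg
mmu-miR-365-3p: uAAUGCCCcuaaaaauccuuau
mmu-miR-21a-5p: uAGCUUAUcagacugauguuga
mmu-miR-27b-3p: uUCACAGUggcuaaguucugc
The 4 sequences hold 4 distinct seeds.

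In Printex 90 replicate 5 of day 1, miR-143 was 3.23-fold and miR-145 2.37-fold above the median of the other 27 hearts, at places 3 and 4 among the deviations of 306 miRNAs. In vehicle replicate 5 of day 3 they were 1.51-fold and 1.52-fold above it, at places 30 and 29. Both arms of miR-140 came before the members in both hearts: miR-140 was 7.06-fold above the median in the exposed heart and 3.1-fold in the vehicle heart, and miR-140* was 5.46-fold and 2.94-fold. miR-365 was 1.91-fold and 1.19-fold above it, above all other hearts in both cases. Both hearts were picked as the highest in miR-143, so its place above the other 27 was fixed by that choice. miR-140, miR-140* and miR-365 were named by their r with the members over hearts that include these, so their height here is no separate finding.

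Markers of other cells moved in these hearts as well. Of the fibroblast miRNAs, miR-214 was 1.69-fold above the median in the exposed heart and 1.75-fold in the vehicle heart. miR-199a-5p was 1.48-fold and 1.74-fold, and both exceeded all other 27 hearts in both cases. The remaining one, miR-199a-3p, was 1.57-fold and 1.80-fold, above all other 27 in the vehicle heart only. Of the red cell miRNAs, miR-451 was 1.78-fold and 1.98-fold, inside the range of the other 27 in both hearts. miR-144* was 2.28-fold and 1.92-fold, inside that range in the vehicle heart only. Among heart muscle miRNAs, miR-133a stood at 0.667-fold and 0.819-fold of the median and miR-133b at 0.723-fold and 0.861-fold, all below that range. miR-499, at 0.633-fold and 0.722-fold, lay inside the range in both hearts. miR-208a-3p, at 0.905-fold and 0.748-fold, lay inside it in the exposed heart only. miR-1a was at 1.02-fold in the exposed heart and 0.83-fold in the vehicle heart. Endothelial miR-126-5p had the lowest deviation of all 306 miRNAs in both hearts (0.278-fold and 0.369-fold). It also varied widely among the other 27 hearts, from 7.11 to 8.95. The vehicle heart at 7.18 lay inside that range, and the exposed heart at 6.78 below it. The opposite arm miR-126-3p was at 0.826-fold and 0.895-fold.

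Both hearts were hybridised on slide 2, at neighbouring positions of its first row. The other 6 hearts of that slide lay between 9.85 and 9.99 in miR-143 and between 6.45 and 6.65 in miR-145, inside the range of the rest. In all, 31 of 306 miRNAs in the exposed heart and 34 in the vehicle heart exceeded all other 27 hearts. The same count was not made for any other heart, so how unusual these are is not known. The share of spots well above background was 19.2% and 23.8%, inside the range of 18.4% to 27.5% over all arrays. The part of tissue makeup and of slide position in these values was not tested.

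**Figure D4:**
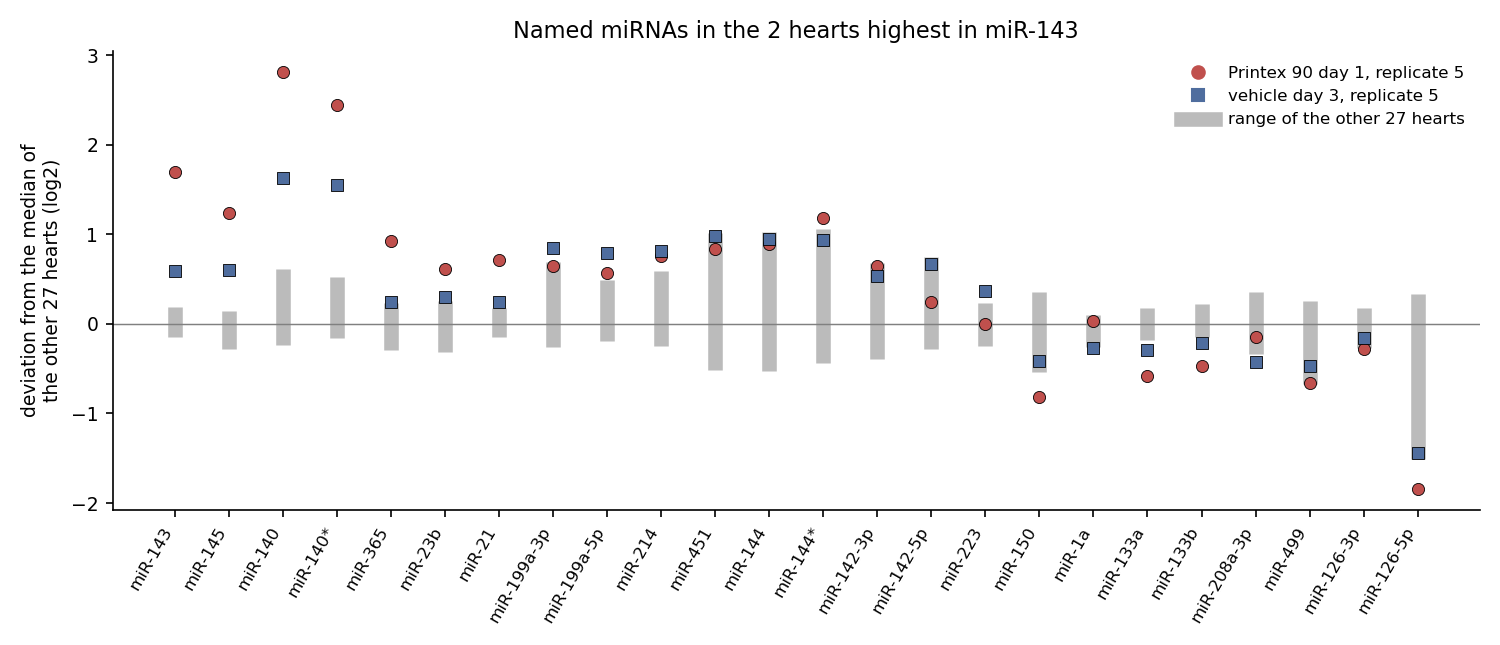
Deviation (log2) of named miRNAs from the median of the other 27 hearts in Printex 90 replicate 5 of day 1 (circles) and vehicle replicate 5 of day 3 (squares), with the range of the other 27 hearts as grey bars. Both members, both arms of miR-140, miR-365, miR-21, miR-23b, miR-199a-5p and miR-214 lie above the grey bars in both hearts. miR-133a and miR-133b lie below them in both. The hearts were picked as the highest in miR-143. Both arms of miR-140, miR-365, miR-21 and miR-23b were named by their likeness to the members over hearts that include these.

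Other miRNAs of the smooth muscle cell were set beside the pair as lists. Of 6 that favour the contractile state or restrain growth (miR-1a, miR-133a, miR-133b, miR-195, miR-204 and miR-490-3p), all 6 were tested and 0 passed in any exposure comparison. On day 1, 1 was higher and 5 were lower in Printex 90 hearts, with a median difference of -0.094 beside -0.066 over all tested miRNAs. On day 3, 2 were higher and 4 lower (median -0.018 beside 0.031), and on day 28, 1 was higher and 5 lower (median -0.053 beside 0.014). The values with the smallest p on day 1 were miR-204 at -0.26 ± 0.12 (limma, adjusted p = 0.742) and miR-133a at -0.10 ± 0.10 (adjusted p = 0.783). On day 3 they were miR-1a at 0.069 ± 0.074 and miR-204 at 0.082 ± 0.12, and on day 28 miR-490-3p at -0.15 ± 0.17 and miR-133a at -0.081 ± 0.10. miR-1a, miR-133a and miR-133b are also markers of heart muscle cells, and the list is no reading of smooth muscle alone. Leaving out the 2 high hearts, 1 was higher and 5 lower on day 1 (median -0.014) and 3 were higher and 3 lower on day 3 (median -0.011), again with 0 calls.

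Of 7 miRNAs linked to growth or loss of the contractile state (miR-21, miR-221, miR-222, miR-24, miR-26a, miR-31 and miR-146a), 6 were tested, since miR-222 did not reach the filter on detection. None of the 6 passed in an exposure comparison (0 calls in limma): 3 were higher and 3 lower on day 1 and on day 3, and 2 were higher and 4 lower on day 28. Their median differences were 0.011, -0.0062 and -0.022, beside -0.066, 0.031 and 0.014 over all tested miRNAs. On day 1, miR-146a was at -0.31 ± 0.17 and miR-31 at 0.18 ± 0.11 (limma, adjusted p = 0.742 for both). On day 3, miR-146a was at 0.11 ± 0.17 and miR-21 at 0.072 ± 0.11, and on day 28, miR-31 was at -0.18 ± 0.11 and miR-26a at -0.089 ± 0.075. In the fit that leaves out the 2 high hearts, 2 were higher and 4 lower on day 1 (median -0.069) and 4 were higher and 2 lower on day 3 (median 0.035), with 0 calls.

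Over time, miR-31 was the one list member that passed: in vehicle hearts it was 5.43 ± 0.14 on day 28 and 4.98 ± 0.18 on day 1 (SD, n = 4 each), a rise of 0.45 ± 0.12 (limma, adjusted p = 0.0373) in a comparison where 1.96% of all miRNAs passed. The groups did not overlap, with day 28 hearts between 5.31 and 5.62 and day 1 hearts between 4.82 and 5.18. Without the 2 high hearts the adjusted p was 0.0126. The call was lost when vehicle replicate 3 or 4 of day 1 (adjusted p = 0.206 and 0.223) or replicate 1, 3 or 4 of day 28 (0.0961, 0.0524 and 0.238) was left out. It was also lost in 8 other alternatives: normexp, quantile normalization, scaling to the total gene signal or to all probes' percentile, no scaling, the value table, array brightness as a covariate and a fit of these groups alone. There the rise ran from 0.24 with normexp to 0.63 with all probes' percentile, and the adjusted p from 0.0587 to 0.902. On the same days miR-143 and miR-145 of vehicle hearts differed by -0.058 and -0.084.

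Cell markers were read beside the exposure differences of the pair. Red cell miRNAs (3 of 4 listed were on the array: miR-451, miR-144 and miR-144*) were all higher in Printex 90 hearts on days 1 and 28, with median differences of 0.47 and 0.42, and all lower on day 3 (-0.18), and 0 of them passed. The log2 of their summed signal, nearly that of the bright miR-451 alone, lay between 13.74 and 14.78 in Printex 90 hearts on day 1. In vehicle hearts it lay between 13.49 and 14.06 on that day. On day 28 it lay between 13.61 and 14.68 in Printex 90 hearts and between 13.41 and 13.69 in vehicle hearts. The 3 fibroblast miRNAs were higher on day 1 (median 0.068) and lower on days 3 and 28 (-0.056 and -0.094). miR-144 and miR-144* are opposite arms, as are miR-199a-3p and miR-199a-5p, so neither the red cell nor the fibroblast counts are of independent markers. The log2 of the summed fibroblast signal lay between 9.92 and 10.81 in Printex 90 hearts and between 10.10 and 10.23 in vehicle hearts on day 1. The fibroblast signs turned without the 2 high hearts, to 3 lower on day 1 (median -0.046) and 3 higher on day 3 (0.092), while the red cell medians were 0.38 and -0.060. Leukocyte miRNAs, 2 higher and 2 lower on each day, had medians of 0.029, 0.0088 and 0.075, and without those hearts 0.048 on day 1 and 0.063 on day 3. Of the 5 heart muscle miRNAs, 1 was higher on day 1, 3 on day 3 and 0 on day 28. Their medians were -0.10, 0.0033 and -0.076, with 0 calls. Both arms of miR-126 were lower on days 1 and 28 and split on day 3 (medians -0.16, 0.054 and -0.028, 0 calls). Without the 2 high hearts, medians on days 1 and 3 were -0.015 and -0.059 for heart muscle, -0.024 and -0.051 for miR-126. Over all tested miRNAs and all hearts the medians were -0.066, 0.031 and 0.014. The part of these cell types in the pair's values was not tested.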

How the data were processed

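Heart total RNA enriched for small RNA was hybridised to Agilent miRNA arrays, and per the file headers the deposited intensity values come from Feature Extraction 10.7.3.1, background-subtracted and detrended, per spot. The file of Printex 90 replicate 3 of day 3 lists names without signals, so 29 of 30 samples were fitted, not the planned 30. The deposited log2 value table of the authors holds all 30 samples. Its miRNAs ranked as the median pixel signal did (Spearman's rho at least 0.995), its column medians lay between 5.78 and 5.82, how it was scaled is not given in the sources used here, and it served as an alternative.

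Processed signal was averaged over a probe's spots without outlier spots, scaled on the 75th percentile (over 418 probes that every array detected), raised to a floor of 16.9 and taken to log2. Detection of a probe required that a share of 0.5 or more of the spots exceeded background clearly. The value of a miRNA averaged the probes with 4 or more detecting arrays in some group (306 miRNAs). Group means were fitted in limma 3.58.1 (R 4.3.3), with 13 contrasts, two-sided, and Benjamini-Hochberg adjustment over 306 miRNAs at 0.05. The procedure was tested on simulated data. Correlations and the ratio of the members used permutation tests (scipy 1.17.1). The number of arrays limits the precision, with a residual SD of 0.36 for miR-143 and 0.30 for miR-145.

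Groups were taken from the labels, and replicate numbers follow accession order. The series text states 6 mice per group, and the samples analysed here are those above. Named miRNAs are the members, their passenger arms, the 5 closest by Pearson's r, and in the lists those that passed or the 2 with the smallest p. The members and lists were chosen with earlier results of these data known. Alternatives covered scaling, background correction (normexp with an offset of 50, on median rather than mean pixels, which the files lack), probe summary, filter, slide, brightness, the samples fitted and single hearts. Leaving out the 2 high hearts and reading 1 probe at a time were chosen after seeing the data.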

Additional observations from a re-analysis of the deposited data

Results flagged for a closer look

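In 6 of the 18 sets of values tested, those of miR-143, miR-145 and their ratio in each group of 4 to 6 hearts, 1 heart lay far from the others by Dixon's test at the 95% level. Chance gives about 1 in 20. For miR-143 the hearts were Printex 90 replicate 5 of day 1 (11.65), Printex 90 replicate 1 of day 3 (10.12) and vehicle replicate 5 of day 3 (10.56). For miR-145 they were Printex 90 replicate 5 of day 1 (7.83), vehicle replicate 5 of day 3 (7.19) and, at the low end, vehicle replicate 1 of day 28 (6.37). The exposed day 3 heart at 10.12 lay inside the range of 9.81 to 10.15 of the 27 hearts that do not stand apart, and the vehicle heart at 6.37 inside their range of 6.30 to 6.73. In the authors' log2 value table Printex 90 replicate 5 of day 1 was also high in miR-143, at 12.17, while vehicle replicate 5 of day 3 was at 10.45, beside 10.44 in vehicle replicate 4. For miR-145 both hearts stood above all others in that table, at 8.04 and 7.61, where the next highest was 7.41.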

How the results depend on the processing

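No alternative brought a member past the threshold. Of 1186 tests of the pair under other settings, in limma or by exact permutation, 0 passed, and the lowest adjusted p was 0.2875. The differences are small beside their errors, and signs were not stable. The cause was not tested. Of the 1186 tested differences 107 turned sign. The 1246 recomputed differences also hold those within slides, which were neither tested nor scored for sign. Of those within slides, 10 moved by more than the spread between hearts. Recomputed values of Pearson's r over the pair kept their sign in 46 of 46 cases, though rho was 0.067 with quantile normalization and 0.22 with normexp. These cases hold neither setting over the 27 other hearts, where r was -0.20 with quantile normalization and -0.0071 with normexp. All values are log2 differences, miR-143 before miR-145 where both are given.

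Without the 2 high hearts the exposure difference on day 1 was -0.15 and -0.14, on day 3 it was 0.041 for miR-145, and the exposure difference on day 3 minus day 1 was 0.14 and 0.18. On day 28 minus day 1 it was 0.087 and 0.13, and on day 28 minus day 3 -0.056 and -0.058. In Printex 90 hearts day 3 against day 1 was then 0.048 and 0.10 and day 28 against day 1 was 0.029 and 0.042. In vehicle hearts day 3 against day 1 was -0.094 and -0.084, day 28 against day 3 was 0.036 and 6.4e-05, and the day 1 ratio was -0.0045. With no scaling, the exposure difference was -0.049 and -0.11 on day 1 and 0.020 and 0.058 on day 3. Its change was then 0.069 and 0.17 on day 3 minus day 1, 0.031 for miR-145 on day 28 minus day 1, and -0.14 and -0.14 on day 28 minus day 3. Vehicle hearts on day 3 against day 1 were at -0.23 and -0.21. Scaling also shifts all miRNAs: the median exposure difference of all 306 on days 1, 3 and 28 was -0.066, 0.031 and 0.014 as reported, -0.24, 0.13 and -0.049 with no scaling, and 0.11, -0.057 and -0.16 with the percentile over all probes. With the percentile over all probes, day 28 minus day 3 of the exposure difference was -0.040 and -0.034, and vehicle day 28 against day 1 was 0.12 and 0.094. Quantile normalization gave -0.020 for miR-145 in that change and 0.0095 and 0.0011 for the mean exposure. It gave 0.089 for miR-145 in vehicle day 28 against day 1, -0.079 for miR-143 in vehicle day 3 against day 1, and ratios of -0.19, 0.080 and 0.13 on days 1, 3 and 28.

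Normexp gave, for miR-145, 0.016 for exposure on day 28, 0.025 for the mean exposure, 0.0089 for vehicle day 28 against day 1 and 0.00016 for Printex 90 day 28 against day 3. Mean exposure was 0.018 and 0.027 with the total gene signal, 0.0077 for miR-143 with slide as a fixed block, 0.027 for miR-145 in the value table and 0.0071 for miR-145 with the brightest probe, which is also its second probe alone. Vehicle day 3 against day 1 for miR-143 was -0.0068 with the total gene signal, -0.026 and -0.011 with slide as a fixed and a random block, -0.0053 with the first probe alone and -0.089 with array brightness as a covariate, which gave -0.037 for miR-145. Printex 90 day 28 against day 3 for miR-143 was 0.0035 with that covariate and 0.0033 with the fixed block, and the exposure change on day 28 minus day 3 for miR-143 was -0.057 in the value table.

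Within slide 2, which holds both high hearts, day 1 exposure was 0.77 and 0.58, Printex 90 day 3 against day 1 was -0.84 and -0.51, day 28 against day 1 was -0.81 and -0.60, and the ratio was 0.19 on day 1 and 0.097 on day 28. Within slide 3 Printex 90 day 28 against day 1 was 0.16 and 0.24, exposure on day 28 was 0.36 for miR-145 and the ratio on day 28 -0.20. Within slide 4 day 1 exposure was -0.25 for miR-145. Slides gave no value for the mean exposure or the changes between days.

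Leaving out single hearts, exposure ran from -0.15 to 0.22 and from -0.14 to 0.15 on day 1, from -0.11 to 0.041 for miR-145 on day 3, from -0.079 to 0.041 for miR-145 on day 28, and from -0.10 to 0.026 and from -0.075 to 0.034 for the mean. Its change ran from -0.32 to 0.044 and from -0.21 to 0.077 on day 3 minus day 1, from -0.28 to 0.087 and from -0.16 to 0.13 on day 28 minus day 1, and from -0.056 to 0.095 and from -0.058 to 0.11 on day 28 minus day 3. Printex 90 hearts ran from -0.32 to 0.048 and from -0.19 to 0.10 on day 3 against day 1, from -0.34 to 0.029 and from -0.25 to 0.042 on day 28 against day 1, and from -0.071 to 0.033 and from -0.11 to 0.00068 on day 28 against day 3. Vehicle hearts ran from -0.094 to 0.048 and from -0.084 to 0.065 on day 3 against day 1 and from -0.11 to 0.036 and from -0.15 to 6.4e-05 on day 28 against day 3. The ratio ran from -0.0045 to 0.10 on day 1 and from -0.094 to 0.012 on day 28. miR-31 in vehicle hearts on day 28 against day 1 ran from 0.39 to 0.52 without single hearts and from 0.24 to 0.63 over all alternatives, and lost its call in 13 of 45. With no filter, 652 of 1079 miRNAs had 1 value on every array and could not be fitted, and 0 of the other 427 passed in any exposure comparison. No paired analysis was possible because the labels give groups no shared replicate numbers.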

Other observations

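Over the 27 hearts that do not stand apart, the SD of miR-143 was 0.096 and that of miR-145 0.11 on the log2 scale. The median SD over 306 miRNAs was 0.23 there. The hearts left out were picked as the highest in the members, so only the members' SDs are trimmed on their own values, and the 2 are not comparable. The whole ranges of the members over these 27 hearts were 1.26-fold and 1.35-fold across both treatments and all days. In the authors' log2 value table they were 1.73-fold and 1.28-fold. With all 29 hearts the SDs were 0.34 and 0.28 and the ranges 3.59-fold and 2.88-fold. The residual SDs within groups were then 0.36 and 0.30, above the median of 0.27 over all tested miRNAs.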
